A study of Mus musculus with 10 samples.

Results

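Integrin subunits are the transmembrane proteins through which a cell grips its surrounding matrix, and 10 of their genes are described here: the beta subunits Itgb1, Itgb3, Itgb4, Itgb5 and Itgb6 and the alpha subunits Itgav, Itga2, Itga3, Itga5 and Itga6. They were taken as every probe set, a group of short probes that reads one transcript, whose platform annotation gives exactly 1 of these symbols. That gave 30 of the 45101 probe sets on the array, and 10 of the 18193 genes with a single symbol. The RNA came from BMEL cells, mouse embryonic liver progenitors able to follow either the hepatocyte or the bile duct path. Using Oligofectamine, cells had been given either an antisense oligonucleotide of locked nucleic acid against miR-30a (5 arrays, the antisense arrays, titled ASO-30a) or a scrambled oligonucleotide (5 arrays, the scrambled arrays). Both groups therefore carry an oligonucleotide and the transfection reagent, and no untransfected cells are compared. The labels give neither the oligonucleotide sequences, the dose nor the time after transfection, and nothing in them tells if replicates were separate cultures. The p-values therefore rest on a spread between arrays that may be technical.

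An integrin is a pair of 1 alpha and 1 beta subunit, and the pair sets the ligand. Itgb1 is the shared partner of Itga2 in a collagen receptor, of Itga5 in a fibronectin receptor and of Itga3 and Itga6 in laminin receptors. Itga6 also pairs with Itgb4, the subunit that anchors hemidesmosomes to keratin filaments, and Itgav pairs with Itgb3, Itgb5 and Itgb6 in receptors for vitronectin, fibronectin and latent TGF-beta. In liver, hepatocytes carry a limited set of integrins, while bile duct epithelium is known for laminin and collagen receptors including the pair of Itga6 and Itgb4. A microRNA lowers target transcripts chiefly by pairing its seed, bases 2 to 8, with their 3′ ends, and Itgb3 is a reported target of the miR-30 family. The question is which subunits have another transcript level in cells with antisense to miR-30a.

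The microRNA sequences come from RefSeq (GRCm38.p6), where 3 of the 5 family members miR-30a to miR-30e were matched, and they are shown because the family shares the seed through which Itgb3 is reported to be recognised. Capitals mark the seed in the mature arms, and the 5p arm within the hairpin. The miR-30a gene lies on the plus strand, with its 5p arm at chr1:23272274-23272295.
miR-30a-5p: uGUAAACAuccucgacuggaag
miR-30c-5p: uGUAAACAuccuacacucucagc
miR-30e-5p: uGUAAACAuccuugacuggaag
miR-30a-3p: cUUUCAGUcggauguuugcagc
Mir30a hairpin: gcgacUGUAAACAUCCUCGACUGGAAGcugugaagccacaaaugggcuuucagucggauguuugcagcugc
The 5p arm of miR-30e differs from that of miR-30a at 1 of 22 positions and that of miR-30c at 5, all from position 13 on, so the seed is the same in the 3. The 3p arm of miR-30a has another seed. Of 1679 mature names in RefSeq's set 4 hold the seed of miR-30a-5p, and the fourth is miR-384-5p. The 5p arms of miR-30b and miR-30d were not matched in that set, so the count says nothing of their seeds. The arrays do not measure mature microRNA, so the targeted molecule itself cannot be read from these data.

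Without the replicate number as a block, no integrin subunit gene passed the test over all genes, and the differences were small. The values are log2 expression values as deposited, and a change is the antisense mean minus the scrambled mean. For each gene the brightest of its probe sets over the 10 arrays was tested with limma beside 12633 genes whose mean lay above 4.559, the level under which 40% of probe sets fall. All 10 subunit genes lay above that level. Their changes ran from 0.00 for Itgb5 to 0.23 for Itgb3, a 1.17-fold difference, with a median of 0.10, against a median of 0.01 over all genes tested. All 10 changes were above 0, though that of Itgb5 was 0.000756 and changed sign under other settings. Over all genes tested 55.1% of changes were above 0. Of the 10, 0 passed an adjusted p of 0.05, while 1.53% of all genes did, and 4 had an unadjusted p under 0.05 (Itgb3, Itgb4, Itga3 and Itga6, all higher), against 12.9% of all genes. With the replicate number of the titles as a block, 1 of the 10 passed, Itgb3, which was higher; 3.05% of all genes passed in that fit, and 2% of all genes were higher. In 4 genes (Itgb1, Itgb3, Itgb4 and Itga6) the antisense array was the higher of all 5 same-numbered pairs, which held for 10.6% of all genes. In no subunit gene did the groups stand apart at the brightest probe set, which held for 3.92% of all genes. The mean over the 10 genes lay between 9.05 and 9.13 in antisense arrays and between 8.92 and 9.04 in scrambled arrays. The lowest antisense mean, 9.051, was close to the highest scrambled mean, 9.0445. Adaptor and adhesion signalling genes, described below, had means apart as well, 9.44 to 9.51 in antisense and 9.40 to 9.43 in scrambled arrays. The other adhesion lists had means that overlapped. Antisense against scrambled, these were 7.85 to 7.94 against 7.73 to 7.86 for ligands and 10.37 to 10.44 against 10.36 to 10.43 for partners. For other integrin subunits they were 4.41 to 4.50 against 4.41 to 4.50. How often means of gene lists stand apart was not tested. Over all genes tested, means were 7.73 to 7.76 in antisense and 7.737 to 7.739 in scrambled arrays. Arrays of whole cultures cannot tell a change in RNA per cell from a change in the share of cells that carry it.

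**Figure D1:**
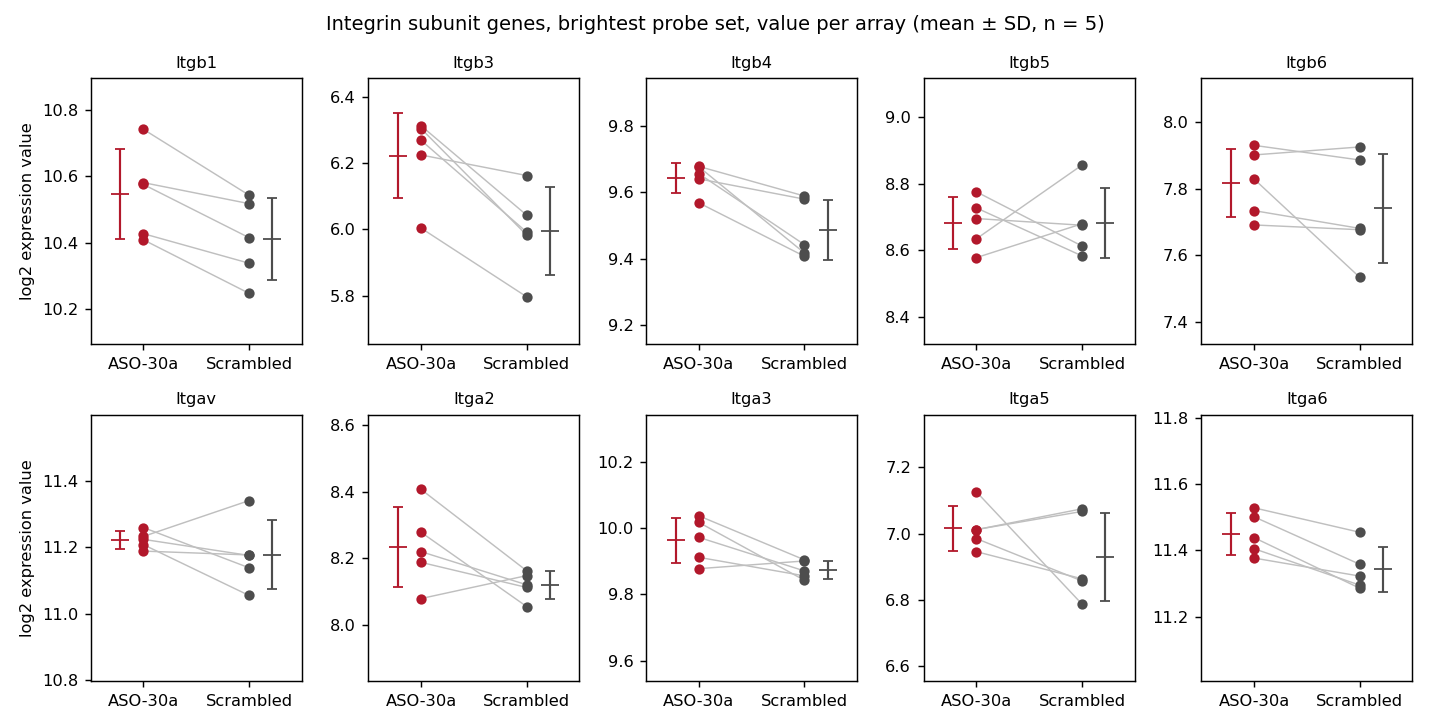
Log2 expression value of the brightest probe set of each of the 10 integrin subunit genes in each array, antisense (ASO-30a) on the left and scrambled on the right, with the mean and SD of each group (n = 5) at the sides. Each panel spans 0.8 on the log2 scale and grey lines join arrays of the same replicate number. The lines slope the same way in all 5 pairs for Itgb1, Itgb3, Itgb4 and Itga6, and in both directions for Itgb5.

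Itgb3, the beta subunit that pairs with Itgav in a vitronectin receptor, had the largest change of the 10 genes. Its brighter probe set, 1455257_at, read 6.22, 6.004, 6.27, 6.30 and 6.31 in antisense replicates 1 to 5, against 6.16, 5.80, 5.99, 5.98 and 6.04 in scrambled replicates 1 to 5. Antisense replicates 1, 3, 4 and 5 lay above every scrambled array, and antisense replicate 2 lay below scrambled replicates 1 and 5, so the groups overlapped. The group means were 6.22 ± 0.13 in antisense and 5.995 ± 0.13 in scrambled arrays (SD, n = 5 each), a change of 0.23 (SE 0.072, limma adjusted p = 0.169). The antisense array was higher in each same-numbered pair, by 0.06, 0.21, 0.28, 0.32 and 0.27 in pairs 1 to 5. With the replicate block Itgb3 rose (limma adjusted p = 0.0359). That call was lost when pair 2, 3, 4 or 5 was left out (adjusted p = 0.0974, 0.120, 0.111 and 0.113) and held without pair 1 (0.0308), and it was also lost when all probe sets were tested together with the block (adjusted p = 0.0706).

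The second Itgb3 probe set, 1421511_at, went the other way. It read 4.94, 4.79, 4.79, 4.98 and 4.84 in antisense arrays and 5.01, 4.87, 4.88, 4.86 and 4.91 in scrambled arrays, replicates 1 to 5. Antisense values were the lower in 4 of the 5 pairs, with a change of -0.04 (SE 0.051, limma adjusted p = 0.874 over all probe sets). Its level lay only a little above the filter. The 95% interval of its change was -0.15 to 0.07, where that of the brighter probe set was 0.07 to 0.39 in the same fit. The change at the brighter probe set exceeded that at the dimmer one by 0.26 (exact permutation test on the per-array difference, two-sided p = 0.00794, the smallest it can give). Among 21 pairs of probe sets of the same gene, a lone pair at that smallest p adjusts to 0.167, so the adjusted value could not pass whatever the difference. The mean of both probe sets had a change of 0.09 (limma adjusted p = 0.513). The platform annotation cites a RefSeq transcript for the dimmer probe set and another sequence record for the brighter one. Which of the transcripts or ends each reads was not tested.

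**Figure D2:**
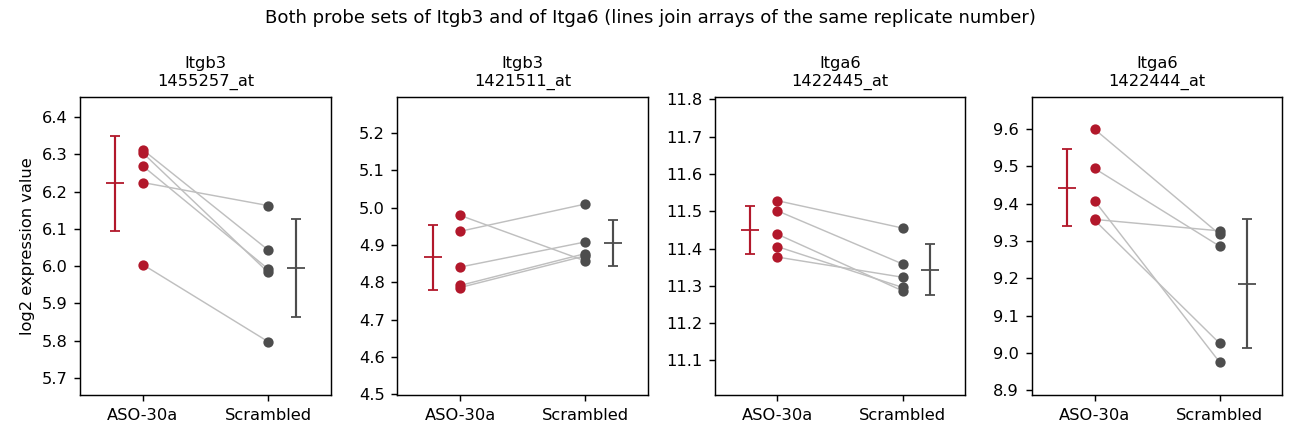
Log2 expression value per array at both probe sets of Itgb3 and both of Itga6, antisense (ASO-30a) left of scrambled, with the mean and SD of each group (n = 5). The 2 Itgb3 probe sets change by 0.23 and -0.04, while the 2 Itga6 probe sets change by 0.11 and 0.26.

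The other partners of the alpha v receptors showed little difference. Itgav, the alpha subunit shared by Itgb3, Itgb5 and Itgb6, lay between 11.19 and 11.26 with a median of 11.22 in antisense arrays, and between 11.06 and 11.34 with a median of 11.18 in scrambled arrays. The antisense range fell within the scrambled range, and the change was 0.05 (95% interval -0.06 to 0.15, limma adjusted p = 0.781). Itgb5, which pairs with Itgav in another vitronectin receptor, read 8.68 ± 0.078 in antisense and 8.68 ± 0.11 in scrambled arrays (SD, n = 5 each). Its change of 0.00 had a 95% interval of -0.12 to 0.12 and a limma adjusted p of 0.998. Same-numbered pairs of Itgb5 differed by -0.22 to 0.16, so the sign depended on the pair. Itgb6, an epithelial subunit whose pair with Itgav activates latent TGF-beta, read 7.82 ± 0.10 in antisense and 7.74 ± 0.16 in scrambled arrays (SD, n = 5 each). Its change of 0.08 (95% interval -0.09 to 0.24, limma adjusted p = 0.752) lay within the spread of the replicates. Most of it came from pair 1, which differed by 0.30, while the other 4 pairs differed by -0.02 to 0.05.

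The laminin receptor subunits had changes of 0.09 to 0.16. Itgb4, the hemidesmosomal partner of Itga6, read 9.68, 9.57, 9.66, 9.68 and 9.64 in antisense replicates 1 to 5, against 9.59, 9.41, 9.44, 9.42 and 9.58 in scrambled replicates 1 to 5. Only antisense replicate 2 lay below any scrambled array, namely replicates 1 and 5. The change was 0.16 (SE 0.047, 95% interval 0.05 to 0.26, limma adjusted p = 0.143), with the antisense array higher in all 5 pairs, and Itgb4 did not pass with the replicate block either. It has 1 probe set, so no second reading bears on it.

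Itga6, the alpha subunit that Itgb4 and Itgb1 share, had probe sets that both changed in the same direction. The brighter, 1422445_at, read 11.53, 11.38, 11.50, 11.44 and 11.41 in antisense arrays, against 11.45, 11.32, 11.36, 11.29 and 11.30 in scrambled arrays, replicates 1 to 5. Antisense replicates 1 and 3 lay above all scrambled arrays and the other 3 below scrambled replicate 1, and the change was 0.11 (SE 0.045, limma adjusted p = 0.338). The dimmer, 1422444_at, read 9.49, 9.36, 9.60, 9.41 and 9.36 in antisense arrays, against 9.29, 9.33, 9.32, 8.97 and 9.03 in scrambled arrays. There every antisense value lay above every scrambled value, the only integrin probe set above the filter for which the groups stood apart, with antisense higher and apart for 2.1% of all probe sets. Its change was 0.26 (SE 0.080, limma adjusted p = 0.211 over all probe sets). Scrambled replicates 4 and 5 were low at this probe set, and the margin between the groups, 9.36 against 9.33, was small. The changes of these Itga6 probe sets did not differ beyond their spread (difference -0.15, exact permutation p = 0.0952 before adjustment). The mean of both had a change of 0.18 (limma adjusted p = 0.141). Itga3, the alpha subunit of another laminin receptor, had changes of 0.09, 0.09 and 0.09 at its 3 probe sets. The brightest read 9.96 ± 0.068 in antisense and 9.87 ± 0.027 in scrambled arrays (SD, n = 5 each, SE of the change 0.040, limma adjusted p = 0.383).

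Itgb1 varied with the replicate number in both groups, and its collagen and fibronectin partners had changes of 0.11 and 0.09. Itgb1, the beta subunit with the most alpha partners, read 10.58, 10.74, 10.58, 10.41 and 10.43 in antisense replicates 1 to 5, against 10.42, 10.54, 10.52, 10.25 and 10.34 in scrambled replicates 1 to 5. Replicate 2 was the highest and replicate 4 the lowest in both groups, and antisense replicates 4 and 5 lay below scrambled replicates 2 and 3. The change was 0.13 (SE 0.072, 95% interval -0.02 to 0.29, limma adjusted p = 0.477), with the antisense array higher by 0.06 to 0.20 in all 5 pairs. With the replicate block the SE was 0.035 and the adjusted p 0.0922. Itga2, the alpha subunit of a collagen receptor, read 8.23 ± 0.12 in antisense and 8.12 ± 0.042 in scrambled arrays (SD, n = 5 each, change 0.11, limma adjusted p = 0.409), and 4 of 5 pairs were higher in antisense. Antisense replicate 1, at 8.41, was its highest value, and antisense replicate 2, at 8.08, lay below 4 of the 5 scrambled arrays. Itga5, the alpha subunit of the classical fibronectin receptor, read 7.02 ± 0.067 in antisense and 6.93 ± 0.13 in scrambled arrays (SD, n = 5 each). Its change was 0.09 (95% interval -0.05 to 0.22, limma adjusted p = 0.623), and pairs 1 and 2 were lower in antisense.

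Of the 30 probe sets 24 lay above the filter, and 6 lay below it, 3 for Itgb1, 2 for Itgav and 1 for Itga5, where only levels between 2.54 and 4.02 were read. Tested with all 27022 probe sets above the filter, 0 of the 24 passed, with and without the replicate block, against 0.6% and 1.28% of all probe sets. An unadjusted p under 0.05 was seen for 4 of the 24, against 10.8% of all probe sets. Changes above 0 were found for 18 of the 24, against 53.8% of all probe sets. Of the 8 genes with more than 1 probe set above the filter, 4 (Itgb1, Itgb6, Itga3 and Itga6) had all of them on one side of 0 and 4 (Itgb3, Itgb5, Itgav and Itga5) had them on both sides. The Itgb1 probe sets changed by 0.13, 0.13 and 0.08, and those of Itgb6 by 0.08 and 0.04. The Itgb5 probe sets other than the brightest changed by -0.07, -0.01 and -0.09, those of Itgav by -0.01 and 0.14, and those of Itga5 by 0.06 and -0.01. Names ending in _x_at or _s_at mark probe sets that may also read other transcripts, which, above the filter, holds for 2 probe sets of Itgb5, 1 of Itgb1, 1 of Itga3 and the brightest one of Itga5. Before adjustment, an exact permutation p under 0.05 for unequal change was found for the Itgb3 pair and for 1 pair of Itgb1 (0.0317), of the 21 pairs of probe sets of one gene.

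**Figure D3:**
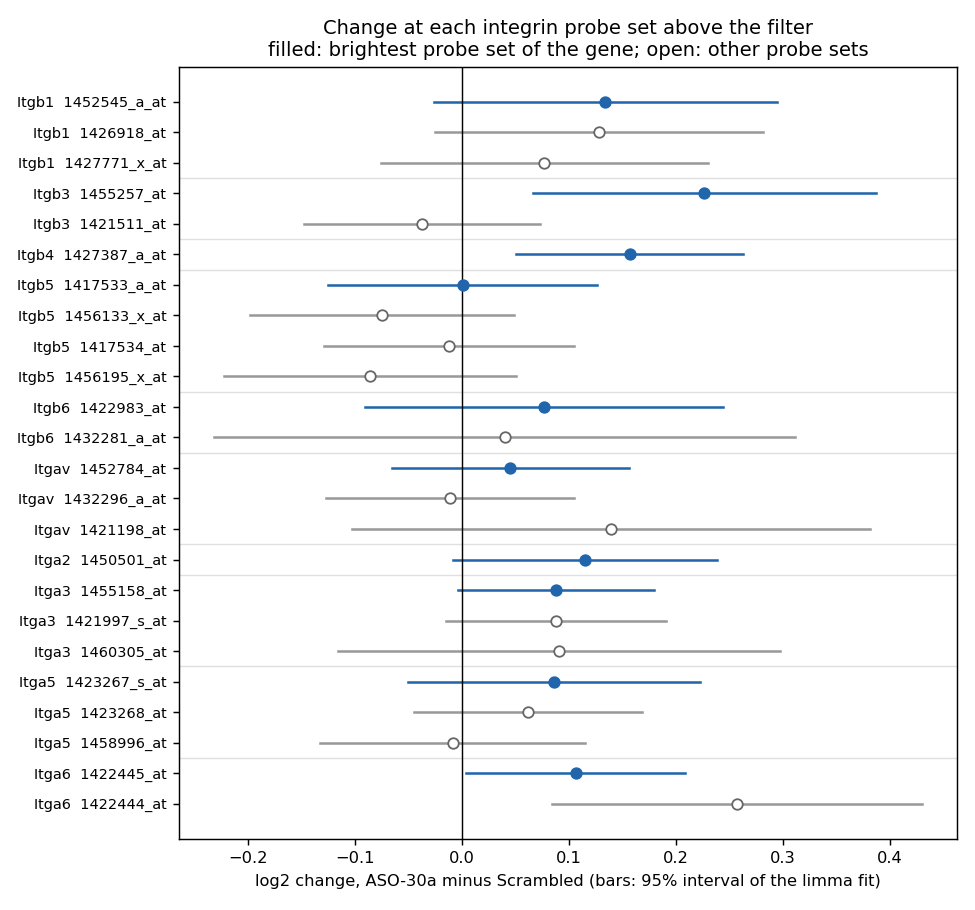
Log2 change, antisense minus scrambled, at each of the 24 integrin probe sets above the filter, with the 95% interval of the limma fit over all probe sets, before adjustment for the number tested. Filled points are the brightest probe set of each gene and open points the others. Changes run from -0.09 at an Itgb5 probe set to 0.26 at an Itga6 probe set, and most intervals include 0.

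The ligands of these receptors held 1 call. Lamb1, a laminin chain of the basement membrane that the pairs of Itga3 and Itga6 bind, read 9.25, 9.32, 9.26, 9.33 and 9.26 in antisense arrays, against 9.01, 9.16, 9.02, 8.95 and 8.99 in scrambled arrays, replicates 1 to 5. All antisense values lay above all scrambled values, and Lamb1 rose by 0.26 (SE 0.045, limma adjusted p = 0.0132), with changes of 0.27 and 0.28 at its other probe sets, neither of which passed over all probe sets. It passed in each of 17 alternative fits. Of 22 ligand genes 19 were on the array and 14 were tested, 1 rose and 0 fell, with 11 changes above 0 and a median of 0.07; over all genes tested 1.16% rose and 0.372% fell. Ccn1, a matricellular ligand of the alpha v and Itgb1 receptors, read 9.50, 10.03, 9.58, 9.63 and 9.58 in antisense arrays, against 8.93, 9.48, 9.35, 9.26 and 9.38 in scrambled arrays. Its groups did not overlap either, which with antisense higher held for 2.74% of all genes, but the change of 0.38 did not pass without the block (SE 0.11, limma adjusted p = 0.118). With the replicate block Ccn1 rose (adjusted p = 0.0181), and its 3 other probe sets had changes of 0.41, 0.19 and 0.18. It is named because of this call, after its values were seen. Vtn, the vitronectin gene, lay under the filter, at 4.15 in antisense and 4.04 in scrambled arrays.

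Among 28 tested genes of adaptors and adhesion signalling, of 32 listed, 0 passed without the block and 7 had an unadjusted p under 0.05, with 23 changes above 0 and a median of 0.05. Over all genes tested 1.53% passed, 12.9% had an unadjusted p under 0.05, 55.1% of changes were above 0 and the median was 0.01. Cav1, the caveolar protein that takes part in integrin signalling, read 11.69, 11.85, 11.66, 11.81 and 11.64 in antisense arrays, against 11.48, 11.58, 11.53, 11.55 and 11.45 in scrambled arrays. Its groups did not overlap, the change was 0.21 (SE 0.050, limma adjusted p = 0.058), and with the replicate block Cav1 rose (adjusted p = 0.0219). The kindlin gene Fermt2, an activator of beta subunits, had a change of 0.15 (limma adjusted p = 0.120), Arhgef7 of 0.14 (0.158) and the parvin gene Parvb of 0.15 (0.183). A second Fermt2 probe set changed by 0.04. A second, dimmer Parvb probe set changed by 0.25 and passed over all probe sets (limma adjusted p = 0.0327). Of 8 tested tetraspanins, hemidesmosome genes and other partners, 0 passed and 1 had an unadjusted p under 0.05, with a median of 0.01. There the tetraspanin gene Cd81 had a change of 0.13 (limma adjusted p = 0.152), Dst of 0.09 (0.393), Cd151 of 0.05 (0.697) and Cd82 of -0.07 (0.781). The 5 other Cd151 probe sets above the filter changed by -0.13 to 0.14, and the second Cd82 probe set by 0.05. The 3 other probe sets of Dst, whose product includes the plakin that links Itgb4 to keratin, changed by 0.25, 0.20 and 0.28, none past the threshold over all probe sets. With the mean of its probe sets Dst rose by 0.20 (limma adjusted p = 0.0343). Of the 16 other integrin subunits 14 were on the array and 9 of those lay under the filter. The 5 tested had a median of 0.01 and none passed without or with the block, and 0 had an unadjusted p under 0.05. Itgb7 had a change of 0.11, Itga1 of 0.10, Itga9 of -0.08 and Itga7 of -0.06.

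**Figure D4:**
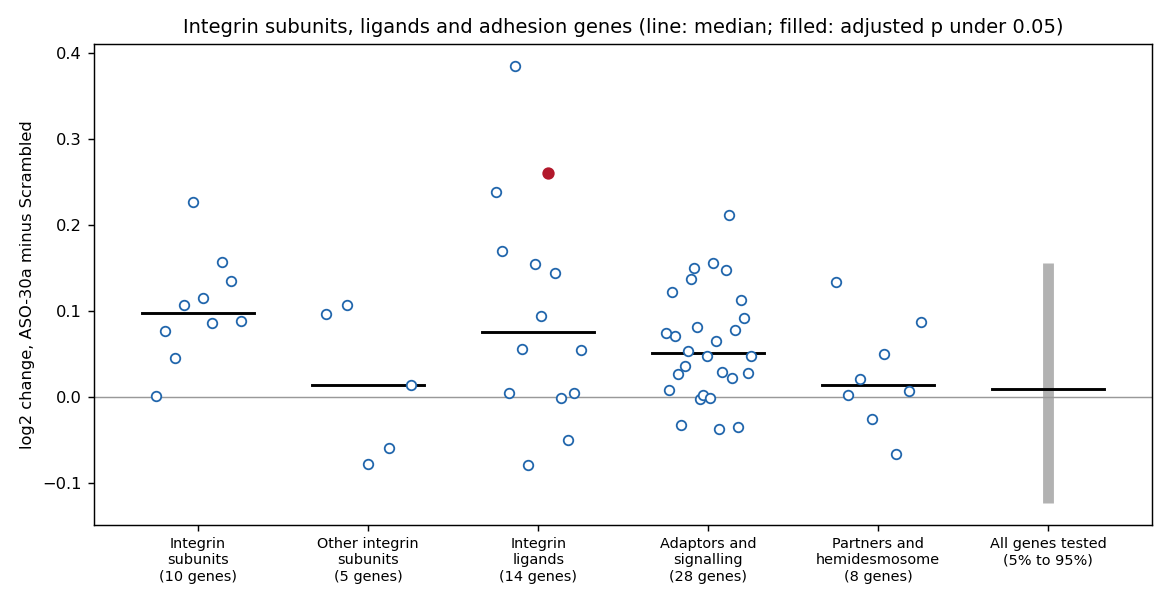
Log2 change, antisense minus scrambled, of the tested genes in each list, with the list median as a line and genes past an adjusted p of 0.05 filled. The last column gives the median of all genes tested, 0.01, and a bar between their 5% and 95% quantiles, -0.12 and 0.16. The 10 integrin subunits have a median of 0.10 and the 14 ligands one of 0.07, and Lamb1 is the filled point.

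The genes whose values over the 10 arrays ran closest to Itgb3 were Abhd4, AI467606, Calcoco1, Adssl1 and Azgp1. Likeness was the root mean square difference of values centred on each gene's mean, which was 0.021 for Abhd4 and 0.045 to 0.064 for the other 4, where the centred values of Itgb3 themselves had a root mean square of 0.162. For Itgb4 (root mean square 0.101) they were Atp6v0a1, Sesn2, Slc4a4, Ghr and Tmbim1, at 0.035 to 0.043. None of these 10 genes passed without the block, and with it Abhd4 and Azgp1 rose (limma adjusted p = 0.0248 and 0.0295). Over all genes tested 1.53% passed without the block and 3.05% with it. The genes were picked by their values in these same arrays, so changes like those of Itgb3 or Itgb4 follow from the choice. The measure of likeness describes the arrays without a test.

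Epithelial markers differed in level, and none of the 9 tested passed. The keratin genes Krt8, Krt18 and Krt19 lay at 13.76, 13.70 and 13.48 in antisense arrays and at 13.77, 13.72 and 13.49 in scrambled arrays. Cdh1 and Hnf4a lay at 11.19 and 10.67 in antisense arrays and at 11.23 and 10.69 in scrambled arrays. Epcam lay at 6.33 in antisense and 6.34 in scrambled arrays at its brightest probe set. At its second probe set Epcam lay lower in antisense, at 6.06 against 6.40 in scrambled arrays. That change of -0.33 did not pass (limma adjusted p = 0.308 over all probe sets). Afp, the fetal counterpart of albumin, lay at 6.43 in antisense and 6.33 in scrambled arrays. The other probe sets of Krt8, Hnf4a and Afp above the filter changed by -0.06 to 0.11. Alb, the albumin gene, lay near the filter, at 4.70 in antisense and 4.73 in scrambled arrays, and Dlk1, a hepatoblast marker, lay under it. Sox9, a bile duct and progenitor factor, lay between 7.30 and 7.46 in antisense arrays and between 7.11 and 7.24 in scrambled arrays. Its groups stood apart, with a change of 0.17 (SE 0.041, limma adjusted p = 0.0662, 0.0571 with the replicate block) and of 0.24 at its second probe set (adjusted p = 0.0637 over all probe sets).

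Of 8 blood, platelet and macrophage markers, which carry integrins of their own, 4 lay under the filter: Ptprc, Itgam, Pf4 and Adgre1. Of the 4 tested, 1 rose and 0 fell, where 1.16% of all genes tested rose and 0.372% fell. The 1 was Cd68, which rose by 0.39 (SE 0.072, limma adjusted p = 0.0176). Cx3cr1 had a change of 0.07 (limma adjusted p = 0.791). Itga2b and Csf1r lay at 6.57 and 6.47 in antisense arrays and at 6.56 and 6.41 in scrambled arrays. The 2 other Csf1r probe sets above the filter changed by -0.001 and -0.03. The mean of the list lay between 4.63 and 4.74 in antisense and between 4.56 and 4.70 in scrambled arrays. Of the 6 endothelial markers Pecam1, Cdh5 and Tek lay under the filter. Flt1, a VEGF receptor gene, lay at 8.17 in antisense and 8.27 in scrambled arrays (change -0.10, limma adjusted p = 0.508), with changes below 0 at its 3 other probe sets above the filter as well. Kdr lay at 6.08 in antisense and 6.09 in scrambled arrays, and Erg at 5.39 in antisense and 5.35 in scrambled arrays. The endothelial mean lay between 5.10 and 5.20 in antisense and between 5.03 and 5.21 in scrambled arrays. Of the 7 mesenchymal and stellate markers Col1a1, Col3a1 and Lum lay under the filter. Acta2 and Des lay at 5.44 and 5.67 in antisense arrays and at 5.38 and 5.65 in scrambled arrays. Col1a2 and Dcn lay at 4.73 and 5.15 in antisense arrays and at 4.81 and 5.18 in scrambled arrays. Of these 4 tested, 2 had changes above 0 and 2 below, with a median of -0.006, and none passed. The mean of the 7 lay between 4.37 and 4.57 in antisense and between 4.42 and 4.51 in scrambled arrays. The part of such cells in the integrin values was not tested.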

How the data were processed

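Total RNA was amplified, biotin-labelled with the MessageAmp Premier kit and hybridised to 10 single-colour Affymetrix mouse arrays, per the labels. Each probe set has 1 deposited value per array, on a log2 scale: the maximum, 14.1827, is more than a natural log could reach from the scanner ceiling (11.09). How the authors summarised and normalized the arrays is not given in the sources used here. The log2 values were used as deposited, since array medians were 5.21 to 5.24, and the number of arrays limits the precision.

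Groups and replicate numbers came from the titles. Of the probe sets, 64 are controls, 34945 have 1 symbol, 932 several and 9160 none. By gene identifier, 34741 of those with 1 symbol were matched to a current gene, whose symbol was used. The groups were tested two-sided, by limma 3.58.1 under R 4.3.3, with Benjamini-Hochberg adjustment over all genes or all probe sets tested; figures used matplotlib 3.10.9. On simulated data (12633 genes, 200 changed, 5 runs) the fit recovered 60.4% of changes of 0.25 and 97.6% of changes of 0.5, with 3.3% of calls false. No smaller change was simulated, and the largest integrin change at a brightest probe set was 0.23. The recovery of changes as small as those of the integrin genes is therefore not known.

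Both groups carry the numbers 1 to 5, whose meaning the labels leave unstated. After each group mean was subtracted, arrays sharing a number correlated at 0.112 to 0.377 over genes. Arrays of different number correlated at -0.312 to 0.231. These ranges overlap. Antisense replicates 1, 2, 4 and 5 correlated most with the scrambled array of their own number, and antisense replicate 3 with scrambled replicate 1 (0.231). The labels do not settle the matter, so it is an assumption that the numbers pair the arrays, and the block serves as an alternative. The main fit has no block, and blocked values stand beside results they change. The members, lists and rule for named genes were chosen with earlier results of these data known. The rule named all members, the called genes of each adhesion list or else its 4 smallest p, and the 5 genes most like Itgb3 and Itgb4. The rule did not cover the cell type markers, which were described after their values were seen. The test between probe sets and the blocked fits without 1 pair were chosen after the values were seen. The alternatives were the block, 2 normalizations, 2 filters, probe set means, an intensity trend in the prior and leaving out each array.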

Additional observations from a re-analysis of the deposited data

Results flagged for a closer look

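In 7 of 60 groups of 5 arrays, 1 array stood apart from the other 4 by more than Dixon's 95% critical value, where chance marks about 1 in 20. At the brighter Itgb3 probe set, antisense replicate 2 was lowest at 6.004, with the next array at 6.22. Antisense replicate 2 was also the highest at Itga3 probe set 1421997_s_at, at 9.37. Scrambled replicate 1 was lowest at Itgb6 probe set 1432281_a_at, at 7.18, with the next at 7.58. Antisense replicate 5 was highest at Itgav probe set 1432296_a_at, at 6.08. Scrambled replicate 5 was lowest at Itga5 probe set 1458996_at, at 4.46. The other 2 concern probe sets under the filter: antisense replicate 1 was highest at Itgb1 probe set 1426919_at, at 3.20, and scrambled replicate 2 lowest at Itga5 probe set 1457561_at, at 3.79. Without antisense replicate 2 the change of Itgb3 was 0.28 (limma adjusted p = 0.0544).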

How the results depend on the processing

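Of the 10 integrin genes 0 passed in the main fit and in 16 of 17 alternatives, and 1, Itgb3, passed with the replicate block; no integrin probe set passed in any alternative run. Itgb3 kept its direction throughout, with changes of 0.18 to 0.28 and adjusted p of 0.0544 to 0.335 when 1 array was left out. The change of Itgb5 turned negative with quantile normalization (-0.0069), median centring (-0.0022) and probe set means (-0.043), and lay between -0.024 and 0.045 with 1 array left out. Without pair 3, 4 or 5 the blocked change of Itgb5 was -0.0041, -0.035 and -0.040. With 1 array left out the change of Itga7 lay between -0.11 and 0.016 and that of Cd82 between -0.096 and 0.0032, above 0 only without antisense replicate 2. The count over all genes, 193 (146 higher), was 385 (253 higher) with the block, 314 (230 higher) with an intensity trend, and 92 to 201 (78 to 160 higher) with 1 array left out, at 95, 92, 123 and 101 without antisense replicates 3, 4 and 5 and scrambled replicate 3. Lamb1 was the 1 adhesion gene called in the main fit, beside 193 of all genes. The adhesion count was 3 with the block, 2 with quantile normalization, 2 with the 60% filter, 3 with the trend and 4 with probe set means. Over all genes the counts in those settings were 385, 187, 233, 314 and 180. With the block no other call of a member changed. The cause was not tested. Levels near the filter limit the dimmer Itgb3 probe set.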
